A study of Mus musculus with 13 samples.

Results

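Gene deserts are long stretches of a chromosome without protein-coding genes, and their contacts with the pericentromeric repeats were examined here in 4 mouse cell types. A gene desert was a window of 1 Mb, counted from position 0 of each mm9 autosome, that held at least 50 called fragment ends and that no body of a protein-coding gene in GENCODE vM1 overlapped. There were 189 gene deserts among 2370 autosomal windows with at least 50 fragment ends, and the other 2181 windows overlapped at least 1 protein-coding gene. The rule used positions and gene models and no sat4C signal.

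The data come from sat4C, a chromosome conformation capture assay that uses the major satellite repeat as viewpoint and so reports which sequences lie close to chromocenters. It was applied to the thymus of 3 male adults of strain C57BL/6, each sequenced on 2 instruments to give 6 sets of reads, to 3 replicates of IB10 embryonic stem cells (ESCs, strain 129/Ola), to 2 replicates of neural precursor cells (NPCs) made from these ESCs in culture, and to 2 replicates of astrocytes (ACs) made from the NPCs. The authors called each fragment end as part of a pericentromere-associated domain (PAD) or of a non-PAD, with 1 consensus call per cell type and 0 columns per replicate. Depth, replicate error and tests between cell types could therefore not be given, and every difference reported here is a description of 4 call tracks. Thymus is a whole organ and alone was sequenced on both instruments, and the cultured cells are of another strain. Tissue, strain, culture, instrument and number of read sets can therefore not be told apart in any comparison with thymus. The calls are population averages, in which contact in more cells and tighter contact per cell cannot be told apart. No RNA was measured in these files, so the cell type labels were not checked against marker genes.

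In interphase nuclei of the mouse, the satellite repeats next to the centromeres of many chromosomes cluster into chromocenters, which are rich in constitutive heterochromatin. Gene deserts are typically AT-rich and late replicating, lie often at the nuclear lamina, and can carry long-range enhancers of the developmental genes at their edges. Mouse autosomes are acrocentric, so that position 0 is the centromeric end of each.

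The units that were called are 4C fragment ends, and 6 of them from the middle of gene deserts are printed because they show the sequence behind the call patterns described below. Each runs 5′ to 3′ on the plus strand of the NCBIM37 (mm9) sequence, from an NlaIII site to an MfeI site, with both sites in capitals. Each is named by the protein-coding genes on either side of its desert. The calls belong to the domain around the fragment end and are no property of these letters.
Epha7 to Map3k7, PAD in all 4 cell types, chr4:29514926-29515117: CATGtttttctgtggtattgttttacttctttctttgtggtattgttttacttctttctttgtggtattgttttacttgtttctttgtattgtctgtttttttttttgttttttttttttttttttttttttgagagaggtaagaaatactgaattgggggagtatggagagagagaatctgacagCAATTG
Gm10800 to B230118H07Rik, non-PAD in all 4, chr2:100628176-100628339: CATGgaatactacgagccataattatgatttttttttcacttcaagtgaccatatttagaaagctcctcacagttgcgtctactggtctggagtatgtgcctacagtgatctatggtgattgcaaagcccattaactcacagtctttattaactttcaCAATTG
Cntnap5a to Tsn, non-PAD in ESCs and PAD in the other cell types, chr1:119495451-119495578: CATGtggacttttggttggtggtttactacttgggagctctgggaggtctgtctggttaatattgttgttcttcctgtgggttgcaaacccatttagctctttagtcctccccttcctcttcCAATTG
Rpl17-ps3 to Rps29, PAD in ESCs and thymus and non-PAD in NPCs and ACs, chr12:69499478-69499545: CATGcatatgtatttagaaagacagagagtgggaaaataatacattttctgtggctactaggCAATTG
Gm8910 to Ralyl, non-PAD in NPCs and PAD in the other cell types, chr3:12499462-12499539: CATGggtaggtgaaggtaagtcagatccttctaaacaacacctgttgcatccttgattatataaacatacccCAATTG
Dhx35 to Gm826, PAD in NPCs and non-PAD in the other cell types, chr2:159476224-159476401: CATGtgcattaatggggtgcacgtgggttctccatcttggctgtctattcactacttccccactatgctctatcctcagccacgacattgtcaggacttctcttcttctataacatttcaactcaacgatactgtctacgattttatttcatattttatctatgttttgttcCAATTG
The 6 fragment ends were between 68 and 192 bases long, and their GC content lay between 28.6% in the Epha7 desert and 46.1% in the Cntnap5a desert. The 189 deserts held 34865 fragment ends in all.

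Gene deserts lay mostly in PADs, to a different extent in the 4 cell types. The mean share of a desert in PADs was 68.9% in ESCs (SD over deserts 34.3), 70.9% in NPCs (SD 34.4), 82.3% in ACs (SD 29.7) and 93.2% in thymus (SD 18.4). Windows with genes had means of 51.1%, 69.7%, 47.3% and 43.6% in the same order. The difference between deserts and windows with genes was therefore 17.8 points in ESCs, 1.16 in NPCs and 35.1 in ACs, with 49.5 in thymus. Against only the neighbouring windows with genes it was 2.04, -1.49, 8.74 and 15.5 points, a comparison described further on. The NPC difference was also below 0 with windows shifted by 0.5 Mb (-1.65) and, in the 33 deserts without a gene of any type, at -2.93, where the ESC difference was 11.3 points. Over all windows and beside the neighbours the difference was smallest in size in NPCs and largest in thymus. Across the 2181 windows with genes, Spearman's rho of NPCs was 0.43 with ESCs, 0.39 with ACs and 0.04 with thymus. It was 0.71 between ESCs and ACs, 0.64 between ACs and thymus and 0.49 between ESCs and thymus (neighbouring windows share domains and base composition). Across the 189 deserts, rho of NPCs was 0.46 with ESCs, 0.40 with ACs and 0.04 with thymus. There it was 0.63 between ESCs and ACs, and 0.32 for thymus with ESCs and with ACs. In deserts the NPC values with ESCs and ACs were thus above those of thymus with the same cell types. The main pattern is also given without NPCs.

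**Figure D1:**
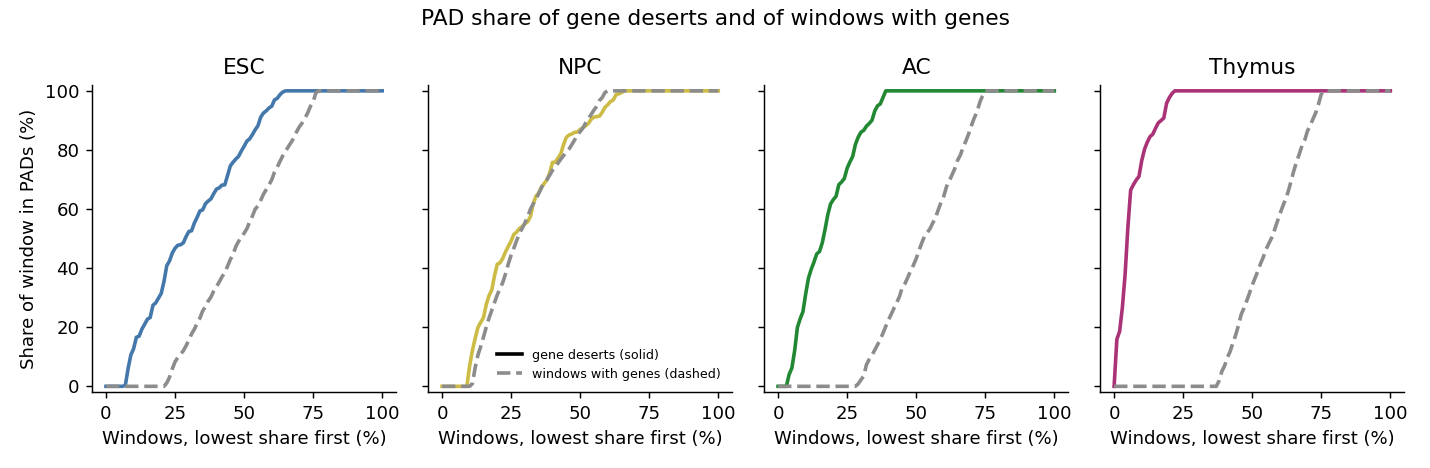
PAD share (y axis, % of the window) of gene deserts (solid, coloured) and windows with genes (dashed, grey) in the 4 cell types, with windows ordered from the lowest share to the highest (x axis, % of windows). The solid curve is far above the dashed one in thymus, where 148 of 189 deserts lay in PADs throughout, and the curves run close to each other in NPCs.

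At least 50% of the window lay in PADs in 135 deserts (71.4%) in ESCs, where 53.0% of all 2370 windows passed this line. In NPCs the count was 141 deserts (74.6%), near the 72.9% of all windows. It was 158 deserts (83.6%) in ACs, beside 50.3% of all windows, and 180 deserts (95.2%) in thymus, beside 47.3% of all windows. Only 3 deserts in thymus lay between 40% and 60%, close to the line, compared with 26 in ESCs, 24 in NPCs and 11 in ACs. Deserts that lay in PADs over their whole length numbered 68 in ESCs (36.0%, and 24.6% of all windows), 117 in ACs (61.9%, and 28.3%) and 148 in thymus (78.3%, and 28.9%). In NPCs the direction was the other way, with 66 such deserts (34.9%) and 40.2% of all windows. Deserts without any PAD sequence numbered 13 in ESCs (6.88%, and 20.3% of all windows), 7 in ACs (3.70%, and 26.5%) and 1 in thymus (0.529%, and 34.4%). The NPC count of 18 (9.52%) was near the 10.8% of all windows.

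Borders between PADs and non-PADs were less frequent inside deserts in ACs and thymus than in the genome as a whole. A border fell inside 40 deserts (21.2%) in thymus and inside 36.8% of all windows, and inside 65 deserts (34.4%) in ACs and 45.3% of all windows. In ESCs 108 deserts (57.1%) held a border and 55.1% of all windows did, and in NPCs 105 deserts (55.6%) and 49.0% of all windows. Deserts in ESCs were thus divided between PADs and non-PADs about as often as windows with genes, of which 54.9% held a border. In NPCs deserts were divided somewhat more often than windows with genes, of which 48.5% held a border. These counts follow partly from the shares, since a window that is all PAD holds no border.

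The 189 deserts were next sorted by the cell types in which at least 50% of the window lay in PADs. In 114 deserts (60.3%) this was so in all 4 cell types, against 28.9% of all windows. In 3 deserts it was so in none, against 13.1% of all windows. The next most frequent patterns were PAD in ACs and thymus alone, with 15 deserts (7.94%) and 2.53% of all windows, and 3 patterns with 13 deserts (6.88%) each. These were PAD in all but NPCs (3.33% of all windows), PAD in all but ESCs (3.25%) and PAD in thymus alone (4.60%). PAD in NPCs alone, the pattern of 18.1% of all windows, was seen in 3 deserts. PAD over the whole window in all 4 cell types was called in 28 deserts (14.8%) and in 7.51% of all windows. With NPCs left out, 127 deserts (67.2%) were at least 50% PAD in the other 3 cell types, compared with 32.3% of all windows, and 6 (3.17%) were under 50% in these 3, compared with 31.2%.

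**Figure D2:**
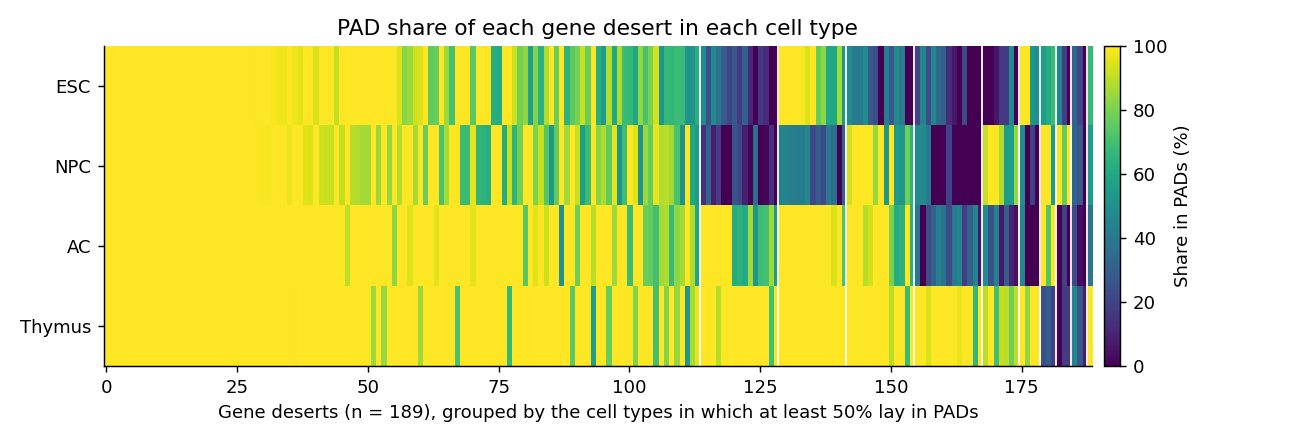
PAD share (colour, % of the window) of each of the 189 gene deserts (columns) in ESCs, NPCs, ACs and thymus (rows), with white lines between the patterns of cell types in which at least 50% lay in PADs. The 114 deserts on the left are PAD in all 4, and the thymus row is at or above 50% in 180 of the 189 columns.

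A comparison of ESCs with thymus shows in which direction single deserts differed. The thymus share was higher than the ESC share by over 10 points in 95 deserts, lower in 12 and within 10 points in 82. On average it was 24.2 points higher, whereas in windows with genes it was 7.51 points lower. In 48 deserts (25.4%) the window was mainly non-PAD (under 50% in PADs) in ESCs and mainly PAD (at least 50%) in thymus, compared with 12.4% of all windows. The opposite was found in 3 deserts (1.59%), compared with 18.0% of all windows. Of the 54 deserts mainly non-PAD in ESCs, 48 (88.9%) were mainly PAD in thymus, while of the 1061 such windows with genes 245 (23.1%) were.

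The shares of ESCs and thymus differed in 127 deserts, and the AC share lay strictly between them in 44 of these and between or equal to either in 95. Where thymus is at 100%, as in 148 of the 189 deserts, any AC share not below the ESC share counts as between or equal. The same counts were not made for windows with genes, so no intermediate place of ACs is read from them. The order ESC, AC, thymus was kept, ties allowed, in 146 deserts, of which 58 had the same share in all 3 and 88 had a lower share in ESCs than in thymus. The reverse order was found in 7 deserts. Among windows with genes, 380 (17.4%) kept the order with a lower share in ESCs than in thymus, compared with 46.6% of deserts. The reverse order was found in 675 of them (30.9%), compared with 3.70% of deserts. The AC share was on average 13.4 points above the ESC share, with 78 deserts higher by over 10 points and 15 lower. Among the 2181 windows with genes, 438 were higher in ACs and 621 lower. NPCs differed from ESCs in both directions, by over 10 points upward in 51 deserts and downward in 54, with a mean difference of 1.96 points. Windows with genes were mostly higher in NPCs, 1009 of them by over 10 points, with 377 lower and a mean difference of 18.6 points. Of the 48 deserts that were mainly non-PAD in ESCs and mainly PAD in thymus, 28 were mainly PAD in ACs and 20 in NPCs. By pattern, 15 were mainly PAD in ACs and not NPCs, 7 in NPCs and not ACs, 13 in both and 13 in neither. Among the 245 windows with genes of this kind the counts were 45, 40, 64 and 96 in the same order.

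The number of genes per window gives the setting of the deserts along a scale. In thymus the mean PAD share was 93.2% without a gene, 81.6% with 1 gene, 73.1% with 2 genes, 61.7% with 3 to 4, 38.8% with 5 to 9 and 20.9% with 10 or more genes. In ACs the shares at both ends were 82.3% and 30.6%, and in ESCs 68.9% and 43.9%. In NPCs all 6 classes lay between 66.8% and 74.4%. The spread within a class was wide, with an SD over windows of 31.0 points for thymus windows with 1 gene.

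**Figure D3:**
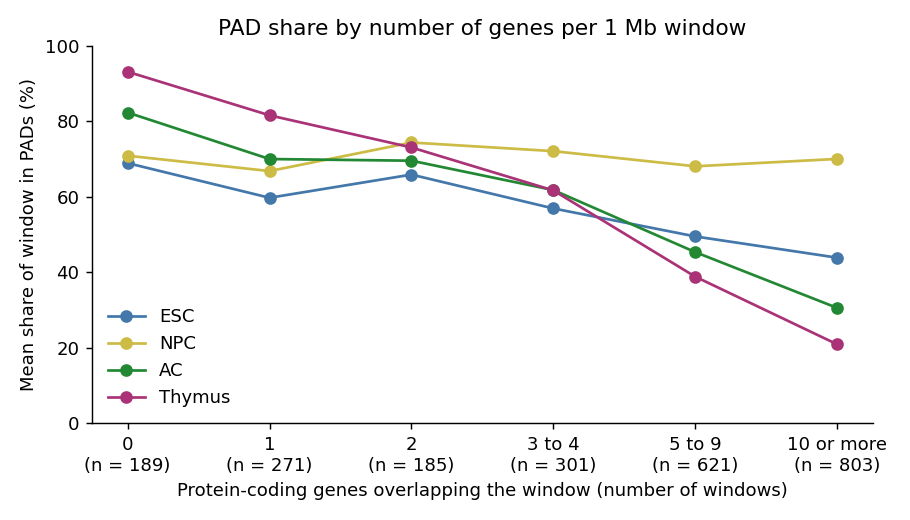
Mean PAD share (y axis, % of the window) of all 2370 windows by the number of protein-coding genes that overlap them (x axis, with the number of windows), with a line per cell type and no error bars. The thymus mean runs from 93.2% without genes to 20.9% with 10 or more, and the NPC line is nearly level.

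Base composition moved with gene content. The mean GC content was 37.5% in deserts (lowest 35.8%, highest 44.5%) and 42.3% in windows with genes. Deserts also held more MfeI sites, whose sequence is AT-rich, with a mean of 245 per window against 183, and more called fragment ends, with 184 against 155. A direct comparison at like base composition used the 170 deserts with a GC content of up to 39.1% and the 439 windows with genes in the same range. Their mean PAD shares were 71.0% and 72.6% in ESCs, 69.9% and 69.5% in NPCs, 84.4% and 82.4% in ACs, and 94.8% and 91.0% in thymus. Windows with genes that were as AT-rich as the deserts thus had PAD shares within 4 points of those of the deserts in all 4 cell types. The part of base composition in the larger differences given above was not tested.

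Within the narrower GC range of the deserts, share and GC content were weakly related. Spearman's rho between GC content and PAD share over the 189 deserts was -0.16 in ESCs, 0.10 in NPCs and -0.25 in ACs, with -0.31 in thymus. Across windows with genes it was -0.45, -0.00376, -0.63 and -0.79. The 63 deserts with the highest GC content had a mean thymus share of 87.4%, and the 63 with the lowest had 95.9%. The number of called fragment ends per desert had a rho between -0.09 and 0.12 with the share in the 4 cell types. Within deserts, no clear relation with the density of calls was therefore seen. Over the windows with genes, the same rho was 0.47 (thymus), 0.40 (ACs), 0.23 (ESCs) and 0.01 (NPCs). The part of call density in the difference between deserts and windows with genes was not tested.

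Position along the chromosome also moved with the share. The 42 deserts that ended within 30 Mb of position 0 had mean shares of 79.8% in ESCs, 72.3% in NPCs and 90.4% in ACs, with 99.8% in thymus, and 41 of them lay wholly in PADs in thymus. The lowest of these 42 in thymus was at 89.97%. The 12 deserts beyond 120 Mb had mean shares of 45.6%, 76.7%, 67.1% and 54.6%. Of these 12, 6 were under 50% in thymus, compared with 3 of the other 177. Windows with genes had a mean thymus share of 68.2% within 30 Mb and of 17.2% beyond 120 Mb. The 12 deserts lay on chromosomes 1, 2, 3 and 7. On the same 4 chromosomes, 41 deserts ended within 120 Mb, of which 2 were under 50% and 27 wholly PAD in thymus, with a mean thymus share of 88.6%.

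**Figure D4:**
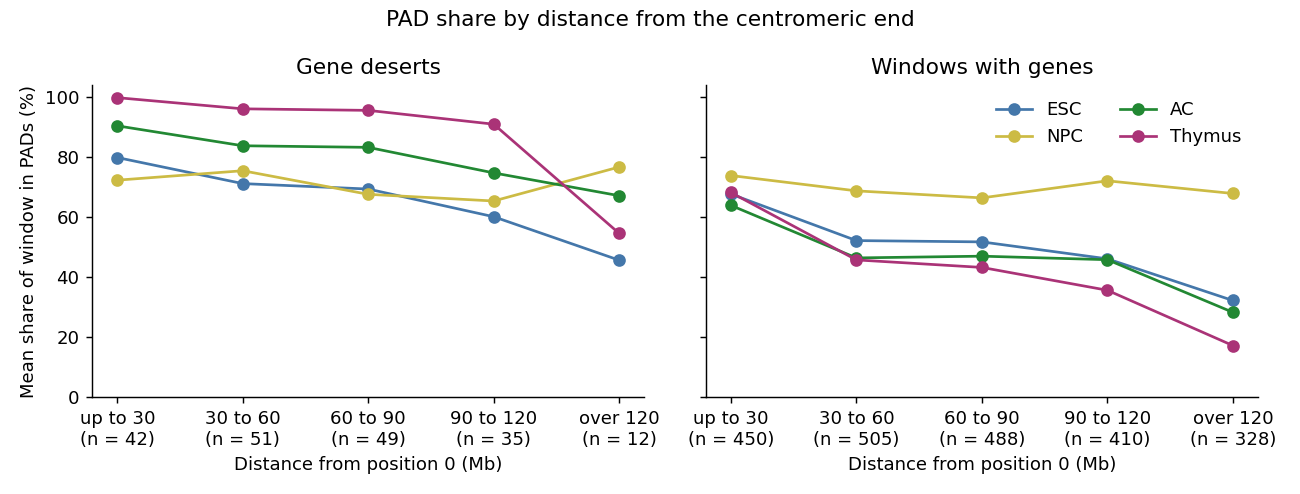
Mean PAD share (y axis, % of the window) of gene deserts (left) and windows with genes (right) by the distance of the window's end from position 0, the centromeric end (x axis, Mb, with the number of windows), with a line per cell type and no error bars. Desert means in thymus stay above 90% up to 120 Mb and are at 54.6% beyond.

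The difference between deserts and windows with genes was also taken within each of the 19 autosomes. In thymus deserts had the higher mean on all 19, by 21.1 points on chromosome 2 up to 70.3 points on chromosome 11. The mean was likewise higher on all 19 in ACs, by 15.9 points on chromosome 7 up to 63.8 points on chromosome 11. In ESCs it was higher on 17 and in NPCs on 12 of the 19 autosomes. Chromosome 11, which is rich in genes, had 8 deserts, with means of 91.4% in ESCs, 79.7% in NPCs and 100% in both ACs and thymus. Chromosome 1 had the most deserts, 20, with means of 57.2%, 75.6%, 78.5% and 84.1%.

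Deserts were then set against the windows with genes right beside them. The 189 deserts formed 137 runs, 99 of them of a single window, 25 of 2, 12 of 3 and 1 of 4. Against the 273 neighbouring windows with genes, the mean share of a run was 2.04 points higher in ESCs, 1.49 points lower in NPCs (70.0% in the runs and 71.5% beside them) and 8.74 points higher in ACs. In thymus it was 15.5 points higher. In thymus 69 runs were higher than their neighbours by over 10 points, 9 were lower and 59 were within 10 points. The neighbours were thus themselves largely PAD, with a mean thymus share of 76.6%, and had a mean GC content of 39.3% compared with 37.7% in the runs. The gene-free intervals were longer than the runs, with a median of 2.33 Mb over the 189 deserts. The neighbours therefore held part of the same gene-free sequence, and these differences do not set deserts against genic sequence alone.

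Among 52 pairs of desert windows side by side in a run, both fell on the same side of 50% in 50 pairs (96.2%) in thymus, 42 (80.8%) in ACs, 40 (76.9%) in NPCs and 42 (80.8%) in ESCs. Among 2007 adjoining pairs of windows with genes the shares were 77.0%, 74.2%, 77.6% and 71.5% in this order. Where nearly all deserts are PAD, as in thymus, most pairs have to fall on the same side, so nothing is read from these counts. The PAD that held the middle of a desert had a median length of 4.85 Mb in thymus (180 deserts), 3.95 Mb in ACs (160), 2.98 Mb in NPCs (126) and 3.02 Mb in ESCs (129). The medians over all autosomal PADs were 0.723, 0.518, 0.828 and 0.494 Mb. A long domain is more likely to hold any given point, so these 2 sets of medians are not on a like footing.

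The gene-free sequence around the deserts reached from the end of the gene on the left to the start of the gene on the right, in 137 intervals with lengths of 1.12 to 4.52 Mb. PADs covered the whole interval in 73 in thymus, 51 in ACs, 26 in NPCs and 29 in ESCs. In thymus both flanking genes had their midpoint in PADs in 66 of these 73 intervals, and neither had in 1. Where both flanking genes lay in PADs the mean share of the interval in thymus was 96.7% (81 intervals), where 1 did it was 87.8% (44), and where neither did it was 48.8% (12). A PAD that covers a whole interval touches both flanking genes, and an interval and its genes often share a domain. No relation between the genes and the interval is therefore read from these values. Other intervals of like length were not counted. Of 263 flanking genes, 195 (74.1%) lay in PADs in thymus, 178 (67.7%) in ACs, 183 (69.6%) in NPCs and 170 (64.6%) in ESCs. Over all 21418 autosomal protein-coding genes these shares were 25.8%, 34.9%, 69.3% and 46.6%.

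Genes with the symbol of a cadherin or protocadherin, calcium-dependent adhesion molecules of the cell surface, flanked 32 deserts in 17 runs. This list was drawn up after the values were seen. The 32 deserts had mean PAD shares of 76.8% in ESCs, 77.6% in NPCs and 91.9% in ACs, with 96.6% in thymus, compared with 67.3%, 69.5%, 80.4% and 92.5% in the other 157. Of the 14 genes, Cdh6, Cdh18, Pcdh9 and Pcdh10 had their midpoints in PADs in all 4 cell types, and Cdh11 in none. Cdh7, Cdh20 and Pcdh17 were in PADs in thymus and in non-PADs in the other cell types. Pcdh20 was in PADs in the 3 cultured cell types and in a non-PAD in thymus.

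There was 1 run of 4 windows and 12 runs of 3, and of the latter the first 4 in the order of the genome are described. The longest run, of 4 windows at chr18:26000001-30000000, lay in 4.52 Mb without protein-coding genes between Celf4, which encodes an RNA-binding protein of neurons, and Pik3c3, a lipid kinase of autophagy. Its mean PAD share was 82.4% in ESCs, 88.9% in NPCs and 80.7% in ACs, with 100% in thymus. The window next to Celf4 had shares of 66.9%, 55.7%, 39.6% and 100%, the lowest in the run for NPCs and ACs. In thymus a PAD of 4.59 Mb spanned the run.

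The run at chr1:103000001-106000000, between the neuronal contactin-associated protein gene Cntnap5b and Cdh20, differed between its windows. Its first window was 12.9% PAD in ESCs, 20.3% in NPCs and 21.9% in ACs, with 100% in thymus. In the middle window the shares were 51.3%, 100%, 100% and 52.7%, and thymus there had a non-PAD of 0.473 Mb inside the desert. The last window had 0.188% in ESCs and 100% in the other 3 cell types. The 3 windows of this run thus had 3 different patterns.

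At chr1:114000001-117000000, between Dsel, an epimerase gene of dermatan sulfate synthesis, and Cntnap5a, the means were 67.5%, 72.9%, 66.9% and 98.1%. Its middle window, which holds the lincRNA gene 9330185C12Rik, was 23.0% PAD in ESCs, 41.3% in NPCs and 22.8% in ACs, with 94.3% in thymus. The windows on either side of it were mainly PAD in all 4.

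The run at chr2:45000001-48000000 adjoins Zeb2, the gene of a transcriptional repressor that acts in neural crest and neural development. It ends before the activin receptor gene Acvr2a. It was 97.0% PAD in ESCs, 62.3% in NPCs and 100% in both ACs and thymus. The low NPC mean came from the last 2 windows, with 45.3% and 41.5%. The thymus PAD that spanned the run was 9.86 Mb long. At chr3:42000001-45000000, before Pcdh10, the means were 98.6%, 94.8%, 100% and 99.8%, so that the run was close to all PAD in every cell type.

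**Figure D5:**
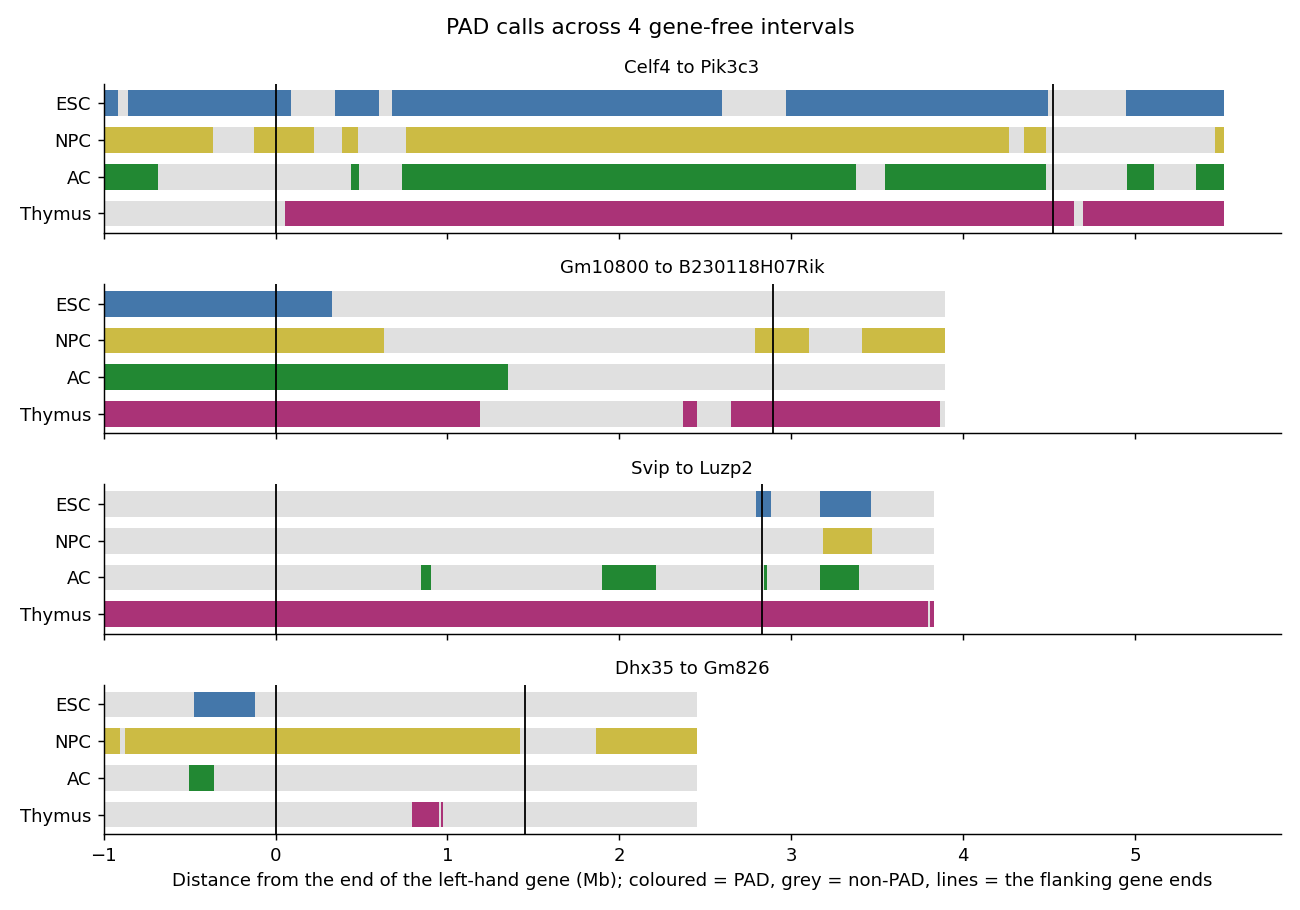
PAD calls (coloured) and non-PAD calls (grey) of the 4 cell types across 4 gene-free intervals, with distance from the end of the left-hand gene on the x axis (Mb) and black lines at both flanking gene ends. The thymus track is PAD across almost all of the intervals from Celf4 to Pik3c3 and from Svip to Luzp2, the second of which is without PADs over most of its length in ESCs, and from Dhx35 to Gm826 the NPC track is PAD where the others are mostly grey.

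A thymus share 100 points above the ESC share was reached both in deserts and in windows with genes. Deserts without PAD sequence in ESCs and wholly PAD in thymus numbered 5, a count that was not made over all windows, so no excess is read from it. The first 2 of them, in the order of the genome, were chr1:119000001-120000000 between Cntnap5a and Tsn, the gene of the nucleic acid-binding protein translin, with 64.5% in NPCs and 64.3% in ACs, and chr4:31000001-32000000 between the ephrin receptor gene Epha7 and the kinase gene Map3k7, with 100% in NPCs and 25.4% in ACs. The latter had 50000 unsequenced bases. In the same interval, the window next to Epha7 was PAD throughout in all 4 cell types, and the first printed sequence comes from it.

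The adjoining windows chr7:60000001-61000000 and chr7:61000001-62000000, between Svip, whose product inhibits protein degradation at the endoplasmic reticulum, and Luzp2, were at 0% in ESCs and in NPCs, at 5.95% and 31.5% in ACs, and both at 100% in thymus. ESCs had a non-PAD of 6.10 Mb there and thymus a PAD of 5.96 Mb. The fifth was chr9:33000001-34000000, between Ets1, a transcription factor gene of lymphocytes, and Kirrel3, an adhesion molecule gene of neurons, with 36.6% in NPCs and 53.1% in ACs.

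The deserts with the highest ESC share relative to thymus differed by less. At chr1:143000001-144000000, between the potassium channel gene Kcnt2 and Cdc73, the shares were 68.2% in ESCs, 54.3% in NPCs and 100% in ACs, with 19.0% in thymus. At chr1:35000001-36000000, between Plekhb2 and the heparan sulfate sulfotransferase gene Hs6st1, they were 45.1%, 99.0%, 0% and 0%, in a desert with a GC content of 43.8%. At chr3:47000001-48000000, between Pabpc4l and 1700018B24Rik, they were 100%, 100%, 89.5% and 55.9%.

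ACs and ESCs differed by up to 100 points in both directions. At chr12:69000001-70000000, between Rpl17-ps3 and the ribosomal protein gene Rps29, the shares were 100% in ESCs, 0% in NPCs and 0% in ACs, with 83.8% in thymus. NPCs and ACs had non-PADs of 19.3 and 19.1 Mb there, while the PAD of ESCs was 4.61 Mb long. At chr4:92000001-93000000, which ends 0.839 kb before Tusc1, they were 52.5%, 19.6%, 0% and 100%, and at chr14:107000001-108000000 100%, 49.1%, 46.5% and 100%. The opposite difference was largest at chr1:147000001-148000000, next to Rgs18, a regulator of G protein signaling in blood cells, with 0%, 77.9%, 100% and 68.0%.

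NPCs had the lowest share relative to the other cell types at chr3:12000001-13000000, between Gm8910 and Ralyl, with 86.1% in ESCs, 0% in NPCs and 100% in both ACs and thymus. At chr5:80000001-81000000, before Lphn3, an adhesion G protein-coupled receptor gene of synapses, the shares were 100%, 21.5%, 100% and 100%. At chr16:47000001-48000000, after the nectin gene Pvrl3, they were 28.8%, 0%, 100% and 100%. The NPC share was highest relative to the others at chr2:159000001-160000000, between the helicase gene Dhx35 and Gm826, with 100% in NPCs, 0% in ESCs and ACs and 17.0% in thymus. It was next highest in the Plekhb2 desert given above and then at chr7:47000001-48000000, before Vstm2b, with 5.98%, 100%, 44.7% and 69.5%. These 3 deserts had GC contents of 41.4%, 43.8% and 42.0%, all above the mean of the deserts.

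A single desert had at most 10% PAD sequence in all 4 cell types. It lay at chr2:100000001-101000000, between Gm10800 and B230118H07Rik, with 0% in ESCs, NPCs and ACs and 8.30% in thymus, in 108 fragment ends. Its GC content of 37.1% was close to the median of 37.2% over all deserts, and it held 4 pseudogenes. The window before it, in the same gene-free interval of 2.89 Mb, had 0% in ESCs, 13.9% in NPCs and 85.9% in ACs, with 69.8% in thymus.

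In thymus 9 deserts had less than 50% PAD sequence, and they had a mean GC content of 39.8%. Besides the Plekhb2, Kcnt2, Gm10800 and Dhx35 deserts, 3 lay on chromosome 3. The desert at chr3:147000001-148000000, between the tubulin-modifying enzyme gene Ttll7 and Lphn2, had 18.4% in ESCs, 75.8% in NPCs and 19.6% in ACs, with 17.4% in thymus. The desert at chr3:150000001-151000000 had 21.1%, 27.4%, 3.47% and 27.4%, and the desert at chr3:155000001-156000000, before the neuronal adhesion gene Negr1, 56.2%, 100%, 100% and 25.4%. The eighth was the desert with the highest GC content, 44.5%, at chr7:143000001-144000000 between the proliferation marker gene Mki67 and the DNA repair gene Mgmt, with 61.8%, 100%, 73.8% and 29.5%. The last, at chr10:91000001-92000000, held Rmst, a long noncoding RNA gene of neural development, and the microRNA gene Mir135a-2, and had 31.7%, 32.2%, 23.3% and 46.0%.

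Noncoding genes or pseudogenes were annotated in most deserts. At least 1 gene of another type overlapped 156 of the 189, and 33 held no annotated gene of any kind. A desert held 2.30 annotated genes on average, and a window with genes 15.7, protein-coding ones included. Noncoding genes alone were not counted in windows with genes, so nothing particular to deserts is read from these counts. There were 9 lincRNA genes in 8 deserts, 40 microRNA genes in 33 and 126 pseudogenes in 59. Small nuclear RNA genes numbered 80 in 64 deserts and small nucleolar RNA genes 77 in 63. Besides the desert of Rmst, the lincRNA deserts were mainly PAD in thymus. So were 180 (95.2%) of all 189 deserts, so this does not set them apart. The desert of Pvt1, the neighbour of Myc, was at 100% in ESCs, NPCs and ACs and 84.7% in thymus.

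The extremes of sequence and coverage are given last. The desert with the lowest GC content, 35.8%, at chr16:68000001-69000000 between the synaptic adhesion gene Cadm2 and Speer2, had 55.1% in ESCs, 87.2% in NPCs and 100% in both ACs and thymus. Most fragment ends, 278, were found at chr16:40000001-41000000 between Igsf11 and Lsamp, both genes of immunoglobulin-type adhesion molecules, with 33.2%, 0%, 43.4% and 100%. Fewest, 88, were found at chr12:116000001-117000000, with 20.9%, 0%, 100% and 100%. That window overlaps 38 variable segments of the immunoglobulin heavy chain locus, which have a gene type of their own in the annotation, and it counts as a desert only under the type protein-coding.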

How the data were processed

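The sat4C reads came from 3 mice (thymus, 6 sets of reads) and from 3 ESC, 2 NPC and 2 AC replicates. The authors mapped them to a reduced mm9 genome of fragment ends and called PADs in each replicate with an HSMM of 2 hidden states. The call of most replicates was kept, and ties were settled by the call on pooled reads. No aligner was stated in the sources used here. The deposited table holds the call, PAD or nPAD, of 399232 fragment ends in 4 columns and has no read counts or columns per replicate.

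Domains were built from consecutive fragment ends with equal calls, and a border was placed midway between adjacent ends whose calls differed. The PAD share is the percent of the called base pairs of a window that lies in PADs, and a share within 0.01 points of 0 or 100 was taken as 0 or 100. Of the 34865 fragment ends in deserts, 97.3% lay at a recognition site of MfeI or NlaIII in NCBIM37, the sequence of mm9. Genes and gene types came from GENCODE vM1, and a gene's status was the call at its midpoint. Shares were computed with pandas 2.3.3, numpy 2.4.6 and scipy 1.17.1 under Python 3.11.15, figures were drawn with matplotlib 3.10.9, and the share calculation was tested on simulated calls.

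The deserts, the rule for named deserts and the alternatives were chosen with earlier results of these data known. Named were the 5 longest runs (ties in windows taken in genome order), the deserts at most 10% PAD in all 4 cell types, the 3 highest and lowest in the differences of ESCs and thymus, of ACs and ESCs and of NPCs and the mean of the others, and the extremes of GC content and of fragment ends. The other deserts in the report were chosen after their values were seen. Groups followed the sample titles. No test was made, since the calls hold no replicates. Chromosomes X and Y were not used here.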

Additional observations from a re-analysis of the deposited data

How the results depend on the processing

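Of 166 recomputed values, 142 moved by less than the 95% exact binomial interval of the value over windows, among them all values with shares of fragment ends, with at least 25 or 100 fragment ends per window, with runs under 5 fragment ends absorbed, without the first 10 Mb, without chromosome 1, the chromosome with most deserts, and without NPCs. So did all values without windows of immunoglobulin segments, an alternative chosen after seeing the data. With at least 25 fragment ends the deserts were the same 189 windows, so their own shares could not move. The line at 100 fragment ends and the immunoglobulin alternative both left out the same desert. Their 188 deserts were identical, so these settings are no separate checks of the desert shares. The binomial intervals take windows as independent, which neighbours are not. They are made for counts and do not measure the spread of mean shares or of differences between means. An example is the NPC difference of 1.16 points, with limits of 0.128 and 3.77. For such values, staying within the interval is no measure of stability. The small difference of deserts minus windows with genes in NPCs changed sign, to -1.65 points with windows shifted by 0.5 Mb, to -2.93 without any gene (33 deserts) and to -1.49 against neighbouring windows. With 2 Mb windows (24 deserts) it was 4.50, the mean share in thymus was 98.9%, the shares of deserts at least 50% PAD were 79.2% in ESCs, 83.3% in NPCs and 91.7% in ACs, with 100% in thymus, and 70.8% were PAD in all 4. With 0.5 Mb windows (756 deserts) the mean in thymus was 84.6%, the shares at least 50% PAD were 77.2% in ACs and 85.3% in thymus, and 51.2% were PAD in all 4. Without any gene, 60.6% were at least 50% PAD in ESCs and the difference there was 11.3 points. At least 90% PAD were 44.4% in ESCs, 46.0% in NPCs and 66.1% in ACs, with 82.0% in thymus, and 24.9% were so in all 4. Against neighbouring windows with genes, a comparison chosen after seeing the data, the differences were 2.04 points in ESCs, 8.74 in ACs and 15.5 in thymus. The cause of these changes was not tested, apart from the stricter line at 90%, which fewer deserts can pass. No paired analysis was possible because the calls are 1 consensus per cell type and no result comes from a test. No replicate could be left out for the same reason, and the read depth behind the calls is unknown here.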
